A study of Mus musculus with 186 samples.

Results

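Axon guidance and cadherin genes were followed here through the reads over their introns in cultured mouse cortical neurons. The genes were those whose symbol starts with Sema, Plxn, Epha, Ephb, Efna, Efnb, Cdh or Pcdh and that do not belong to the capture panel of activity-regulated genes used elsewhere in the study. Each gene was represented by 1 transcript, the one with the highest mean level. The rule gave 122 genes of the 18528 in the intron table, and 4 further genes with such names (Cdh11, Pcdh8, Pcdh20 and Sema3e) were left out because the panel holds them. They comprised 19 semaphorins, 9 plexins, 8 ephrins, 14 Eph receptors, 26 cadherins (the cadherin-related Cdhr genes among them), 10 protocadherins outside the gene clusters and 36 clustered protocadherins.

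The study set brief against sustained neuronal activity and asked what changes when MEK, the kinase that activates ERK, is inhibited. Cortical neurons were taken from CD1 mouse embryos at E16.5 and grown for 7 to 8 days in vitro, so each library is a mixed primary culture. Cultures carried U0126, a MEK inhibitor, or DMSO, its vehicle, and were collected 20 or 60 min into brief or sustained activity or left unstimulated. This made 10 groups of total RNA libraries. Each group had 2 replicates, except U0126 with 60 min of sustained activity and DMSO with 60 min of brief activity, which kept 1 each because the column of their second replicate was identical. The means of evoking activity is not stated in the labels.

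Semaphorins are secreted or membrane-bound cues that mostly act through plexin receptors, often to repel growing axons. Ephrins are membrane-bound ligands of the Eph receptor tyrosine kinases and signal in both directions between touching cells. Cadherins and protocadherins are calcium-dependent adhesion proteins of the cell surface, and the clustered protocadherins give neurons a combinatorial surface identity. Reads over introns come mostly from RNA that is not yet spliced and therefore follow transcription more closely than mature mRNA does.

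Libraries held between 10486281 and 25945718 reads over introns. The 2 replicate numbers mark separate dissections, and these stood apart. The first principal component carried 68.9% of the variance and separated replicate 1 from replicate 2 in every group, so each result is also given from a fit with the replicate number as a block. Cultures of the same dissection were averaged before the fit, so the p-values rest on at most 1 value per dissection and group. Without the block, the spread they measure includes the gap between dissections. With the block, they measure what is left after that gap is removed. All 8 activity-induced genes used as a check rose at 60 min of sustained activity in DMSO, and Fos, a subunit of the AP-1 factor, stood at 83.3 and 79.5 RPM in stimulated cultures against 0.312 and 1.72 RPM in unstimulated ones. RPM is the number of reads scaled to a common library size. Summed introns of 9 neuronal markers lay between 2948 and 4192 RPM, of 7 astrocyte markers between 300 and 504 RPM, and of 7 markers of the oligodendrocyte lineage between 74.8 and 163 RPM. Markers of microglia summed to between 0.772 and 2.59 RPM. Endothelial markers summed to between 31.1 and 43.1 RPM in replicate 2 and between 1.62 and 2.59 RPM in replicate 1. Kdr, the main VEGF receptor, made most of that gap, with means of 36.7 RPM in replicate 2 and 0.583 RPM in replicate 1. In such bulk cultures, fewer cells of a type and less RNA per cell cannot be told apart.

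Most of these genes had readable introns. A mean of at least 0.248 RPM, the pseudocount of the log scale, was reached by 111 of the 122 genes. The 11 below it were Cdh1, Cdh3, Cdh5, Cdh16, Cdh17, Cdh19, Cdhr2, Cdhr5, Epha1, Pcdh12 and Sema3g, several of which are known from epithelia and blood vessels. Among protocadherins outside the clusters, Pcdh9 led with a mean of 612 RPM over all replicates, followed by Pcdh10 with 159 RPM. Cdh2 (N-cadherin) led the cadherins with 239 RPM, ahead of Cdh13 (T-cadherin, held in the membrane by a lipid anchor) with 217 RPM. Epha5 and Epha4 led the Eph receptors with 264 and 162 RPM, and Plxna4 and Plxna2 led the plexins with 214 and 155 RPM. Sema6d and Sema7a led the semaphorins with 128 and 64.8 RPM, and Efnb2 and Efnb3 led the ephrins with 79.3 and 27.2 RPM.

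Levels between genes can be compared only per intron length, which GENCODE gave for all 122 genes on GRCm38. Per kb of intron the order changed. Efnb3, with 2.93 kb of intron, had 9.28 RPM per kb, whereas Pcdh9, with 871 kb, had 0.702 RPM per kb. The next highest were Plxnb2 with 5.66, Plxna3 with 5.39 and Sema4c with 3.77 RPM per kb. By family the median level was 1.90 RPM per kb for clustered protocadherins, 1.14 for plexins, 0.756 for ephrins, 0.342 for semaphorins, 0.254 for other protocadherins, 0.247 for Eph receptors and 0.0293 for cadherins. The clustered protocadherins share introns, so the same reads count for many of them and their median is not the level of single genes.

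After 60 min of sustained activity in DMSO, the introns of 3 ligands of guidance receptors and 2 protocadherins were lower than in unstimulated cultures. By limma, on the log2 of RPM plus 0.248 with Benjamini-Hochberg adjustment over all 21513 transcripts tested, 5 of the 111 fell and 0 rose. Among all transcripts 4.70% fell and 3.36% rose, so the share of these genes that fell (5 of 111, 4.5% called) was near that background. Of the 111, 13 had an unadjusted p under 0.05, and edgeR's quasi-likelihood test on the recovered reads called 2 falls and 1 rise. The 5 were Pcdh1, Efna4, Sema4b, Efnb3 and Pcdh7.

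Pcdh1, an adhesion protein of the protocadherins outside the clusters, moved the most. Its introns had 1.24 and 0.911 RPM in stimulated cultures, against 4.64 and 3.16 RPM in unstimulated ones. Both stimulated replicates lay below both unstimulated ones, a log2 difference of -1.63 ± 0.34 (SE, adjusted p = 0.018). Efna4, an ephrin-A ligand held by a lipid anchor, had 1.47 and 1.22 RPM against 2.67 and 2.76 RPM when unstimulated (log2 -0.90 ± 0.20, adjusted p = 0.022). Its replicates did not overlap either, at levels where few reads lie over 3.04 kb of intron.

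Sema4b, a transmembrane semaphorin, stood at 11.6 and 11.7 RPM in stimulated cultures, against 18.4 and 21.3 RPM in unstimulated ones. Its log2 difference was -0.75 ± 0.14 (adjusted p = 0.013). Efnb3, a transmembrane ephrin known as a midline barrier to axons, had 22.2 and 14.9 RPM against 29.1 and 27 RPM when unstimulated (log2 -0.62 ± 0.16, adjusted p = 0.044). The lower of its stimulated values came from replicate 2, and without that library the difference was -0.34 (adjusted p = 0.23). Pcdh7, another protocadherin outside the clusters, had 108 and 110 RPM against 131 and 145 RPM (log2 -0.33 ± 0.08, adjusted p = 0.037).

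These calls rest on 2 libraries a group. When any 1 of the 4 libraries of the comparison was left out, Pcdh1, Efna4 and Pcdh7 lost their call each time, with log2 differences from -1.89 to -1.37, -1.02 to -0.79 and -0.41 to -0.26. Sema4b kept it only without replicate 1 of the unstimulated cultures (adjusted p = 0.037) and Efnb3 only without replicate 1 of the stimulated ones (adjusted p = 0.0098). Every difference kept its sign.

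With the replicate number as a block, 21 of the 111 fell and 2 rose, while 19% of all transcripts fell and 9.03% rose. The 5 genes above remained among those that fell. By family the falls were 6 of 9 protocadherins outside the clusters, 5 of 18 cadherins, 3 of 8 ephrins, 3 of 18 semaphorins, 2 of 13 Eph receptors, 1 of 9 plexins and 1 of 36 clustered protocadherins. The median log2 difference was -0.04 over the 111 and -0.09 over all transcripts. Most of the added falls were small. Sema4d, a semaphorin known to drive synapse formation through plexin-B1, had 12.7 and 14.5 RPM in stimulated cultures against 17.4 and 20.6 RPM in unstimulated ones (blocked log2 -0.47 ± 0.11, adjusted p = 0.0033). Plxna2, a receptor of class 6 semaphorins, had 132 and 121 RPM against 156 and 164 RPM (blocked log2 -0.34 ± 0.08, adjusted p = 0.0037). The other falls outside these 7 had blocked log2 differences between -0.48 (Cdh18) and -0.20 (Cdh8).

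The direction of this balance depends on the scaling. With TMM scaling and the block, 14 of the 111 rose and 8 fell, against 13.1% rising and 11.3% falling among all transcripts. Without the block, TMM scaling gave 848 rises and 516 falls among all transcripts, against 723 and 1011 on the deposited scale. Of the 14 rises, 12 were gamma protocadherins, which share introns. The 8 falls were Efna4, Efnb3, Pcdh1, Pcdh7, Pcdhac2, Plxna2, Sema4b and Sema4d, and edgeR with the block called the same 8. The 2 rises on the deposited scale, Epha2 and Ephb3, were also called in both of these fits.

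Epha2 and Ephb3 are receptor tyrosine kinases for ephrin-A and ephrin-B ligands. Epha2 had 1.02 and 2.08 RPM in stimulated cultures against 0.0726 and 1.53 RPM in unstimulated ones. In reads this was 18 and 41 from 1 culture each against 3 and 44 summed over 2 cultures each. The gap in RPM was wider in replicate 1 on the log2 scale (blocked log2 1.18 ± 0.34, adjusted p = 0.013, and adjusted p = 0.69 without the block). Ephb3 had 7.63 and 8.25 RPM against 5.26 and 5.25 RPM, with no overlap (blocked log2 0.57 ± 0.16, adjusted p = 0.010, and 0.059 without the block).

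Markers of cell types were read in the same comparison. With the block, 2 of 6 markers of the oligodendrocyte lineage (Olig2 and Cspg4) and 2 of 7 astrocyte markers (Aqp4 and Slc1a2) fell, and 1 of 9 neuronal markers (Snap25) rose, against 19% of all transcripts falling and 9.03% rising. Summed markers of the oligodendrocyte lineage ranged from 77.5 to 149 RPM in stimulated cultures and from 90.5 to 161 RPM in unstimulated ones, and astrocyte markers from 309 to 459 RPM in stimulated and from 358 to 473 RPM in unstimulated ones. Their part in the falls of guidance genes was not tested.

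**Figure D1:**
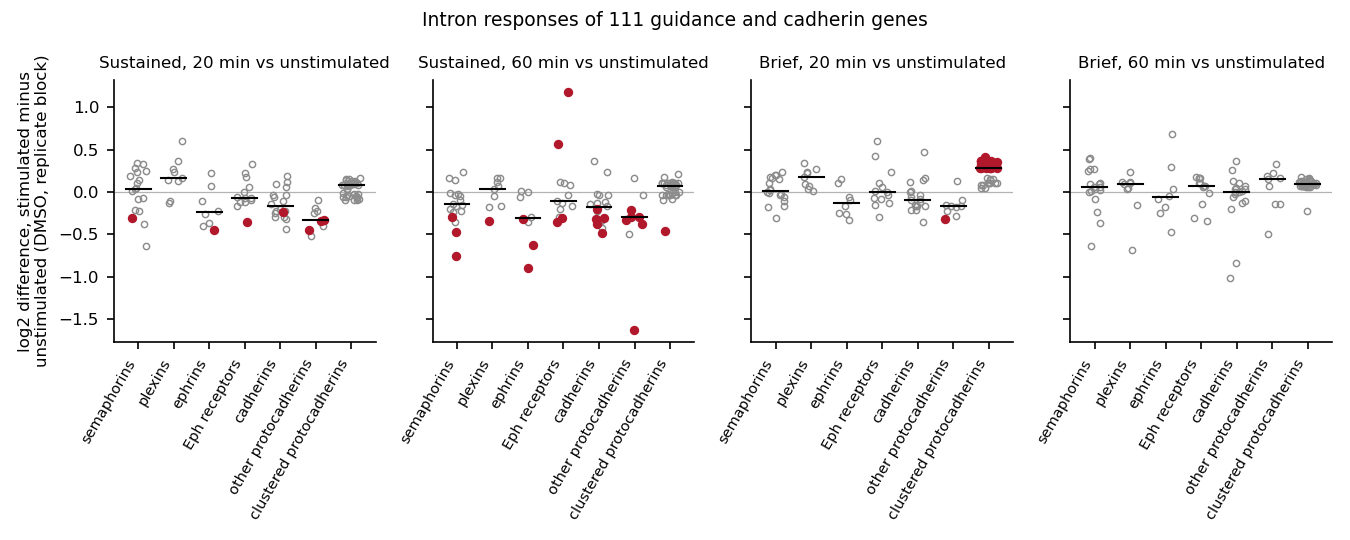
Log2 differences of the introns of 111 genes in DMSO cultures, stimulated minus unstimulated, by family, from limma with the replicate number as a block. Each circle is 1 gene, filled red where the adjusted p is under 0.05, and black lines are family medians. On the deposited scale, at 60 min of sustained activity 21 genes are filled below zero and 2 above it, and at 20 min of brief activity the 21 filled above zero are all clustered protocadherins.

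Promoter sequences are shown for 4 genes whose introns moved at 60 min of sustained activity, 2 that rose and 2 that fell, picked after their values were seen. They are the 250 bases before the first listed start in RefSeq (GRCm38.p6), 5′ to 3′ on the gene's strand, with any match to the motifs searched in capitals. Epha2 is at chr4:141300971-141301220 (plus strand), Ephb3 at chr16:21204545-21204794 (plus), Sema4b at chr7:80186620-80186869 (plus) and Efna4 at chr3:89338029-89338278 (minus).
Epha2: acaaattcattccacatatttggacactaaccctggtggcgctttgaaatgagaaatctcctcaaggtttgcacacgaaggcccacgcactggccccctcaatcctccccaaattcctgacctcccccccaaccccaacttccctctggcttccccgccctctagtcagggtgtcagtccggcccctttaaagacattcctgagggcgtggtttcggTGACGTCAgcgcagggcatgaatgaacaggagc
Ephb3: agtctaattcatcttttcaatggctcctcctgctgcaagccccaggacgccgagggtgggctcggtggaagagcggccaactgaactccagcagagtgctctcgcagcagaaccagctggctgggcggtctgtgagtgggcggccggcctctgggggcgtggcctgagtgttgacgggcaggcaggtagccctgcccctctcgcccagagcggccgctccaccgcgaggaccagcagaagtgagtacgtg
Sema4b: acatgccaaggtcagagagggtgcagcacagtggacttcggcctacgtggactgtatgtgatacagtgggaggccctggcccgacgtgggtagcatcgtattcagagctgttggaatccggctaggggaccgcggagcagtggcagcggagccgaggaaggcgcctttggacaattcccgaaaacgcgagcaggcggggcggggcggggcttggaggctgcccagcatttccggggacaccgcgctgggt
Efna4: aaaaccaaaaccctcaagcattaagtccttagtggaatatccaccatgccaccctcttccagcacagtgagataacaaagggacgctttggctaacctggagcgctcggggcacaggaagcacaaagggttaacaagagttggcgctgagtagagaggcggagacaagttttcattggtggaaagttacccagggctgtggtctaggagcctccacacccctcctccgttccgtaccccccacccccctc

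The motifs searched on both strands were those of factors induced or activated by neuronal activity: TGACGTCA (CRE, bound by CREB), TGANTCA (AP-1), GCGNGGGCG (EGR) and, by name, the serum response element and the MEF2 site. Epha2 holds TGACGTCA with its first base 33 bases before the start, and the other 3 promoters hold none of the 5. The promoter table matched 68 of the 122 genes. Of these, 1 (1.47%) held the CRE against 1.62% of all 27025 promoters, 2 (2.94%) held the AP-1 motif against 6.87%, and 11 (16.2%) held the EGR motif against 4.65%. The serum response element was held by 1 (1.47% against 1.4%) and the MEF2 site by 2 (2.94% against 3.01%). The 11 with the EGR motif were Cdh24, Efna3, Efna5, Epha1, Epha8, Pcdh17, Plxna2, Plxnb2, Plxnc1, Sema4g and Sema5a. Sema4c and Sema4d held the AP-1 motif, Sema4d the serum response element, and Cdh10 and Sema6d the MEF2 site. Base composition was not taken into account. A match describes these letters only.

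The same falls were compared under the MEK inhibitor. At 60 min of sustained activity in U0126, where only replicate 1 remained, 1 of the 111 fell by limma (1.66% of all transcripts fell and 1.47% rose), 7 had an unadjusted p under 0.05, and edgeR called 1. It was Sema4b, at 10.1 RPM in the stimulated culture against 18.7 and 20.8 RPM in unstimulated U0126 cultures (log2 -0.95 ± 0.18, adjusted p = 0.021). Leaving out either unstimulated U0126 library ended that call. Without the block this comparison sets 1 dissection against 2. With the block, 13 fell and 2 rose, against 13.2% and 6.11% of all transcripts. This balance too depended on the scaling: TMM scaling with the block gave 5 falls and 4 rises (1698 and 2138 of all transcripts), and edgeR with the block 5 and 3. The 5 falls called in each of these fits were Pcdh1, Sema4b, Sema4d, Cdh6 and Sema7a. Pcdh1 stood at 1.26 RPM against 4.82 and 4.09 RPM (blocked log2 -1.65 ± 0.35, adjusted p = 0.0022) and Sema4d at 13.5 RPM against 23.1 and 24.8 RPM (blocked log2 -0.70 ± 0.14, adjusted p = 0.0014). Cdh6, a type II classical cadherin, had 14.4 RPM against 23.3 and 21 RPM (blocked log2 -0.58 ± 0.15, adjusted p = 0.0099). Sema7a, a lipid-anchored semaphorin, had 61.8 RPM against 90.3 and 53.7 RPM. That fall shows within replicate 1 alone, and only with the block (blocked log2 -0.59 ± 0.11, adjusted p = 0.00089, and 0.91 without it).

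The U0126 and DMSO responses at this time do not share control libraries. With the block, 9 genes were called in both, 60% of the 15 called in U0126 and 39.1% of the 23 called in DMSO. These 9 were Epha2, which rose, and Ephb1, Pcdh1, Pcdh19, Pcdhac2, Plxna2, Sema4b, Sema4d and Sema6d, which fell. With TMM scaling and the block 4 were called in both (44.4% of 9 in U0126 and 18.2% of 22 in DMSO), namely Epha2, Pcdh1, Sema4b and Sema4d. With edgeR and the block Pcdh1, Sema3a, Sema4b and Sema4d were. Across the 111 genes the responses had the same sign in 75 and a Pearson r of 0.77 (Spearman rho 0.64). These genes are not independent replicates and come from the same dissections. Neither the genes called in both nor these values were set beside all transcripts. They are therefore not read as a trait of these genes.

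The test of the difference itself, the interaction of drug and response at 60 min of sustained activity, called 0 of the 111 by limma (0% of all transcripts, 1 gene with an unadjusted p under 0.05) and 0 with edgeR. With the block it also called 0 of the 111 (0.0232% of all transcripts upward and 0.0325% downward), with 8 genes at an unadjusted p under 0.05. For Pcdh1 the blocked interaction was -0.02 ± 0.44 on the log2 scale and for Sema4b -0.14 ± 0.19. For Efna3, the gene with the smallest unadjusted p, it was 0.58 ± 0.20. For Efna4 it was 0.63 ± 0.33 (adjusted p = 0.80), with 1.92 RPM in the stimulated U0126 culture against 2.51 and 2.13 RPM in unstimulated ones. For Efnb3 it was 0.40 ± 0.17 (adjusted p = 0.71), with 25.3 RPM against 28.3 and 27.2 RPM. The median SE of a blocked interaction over the 111 was 0.14, and a missed threshold does not show that the responses were alike.

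**Figure D2:**
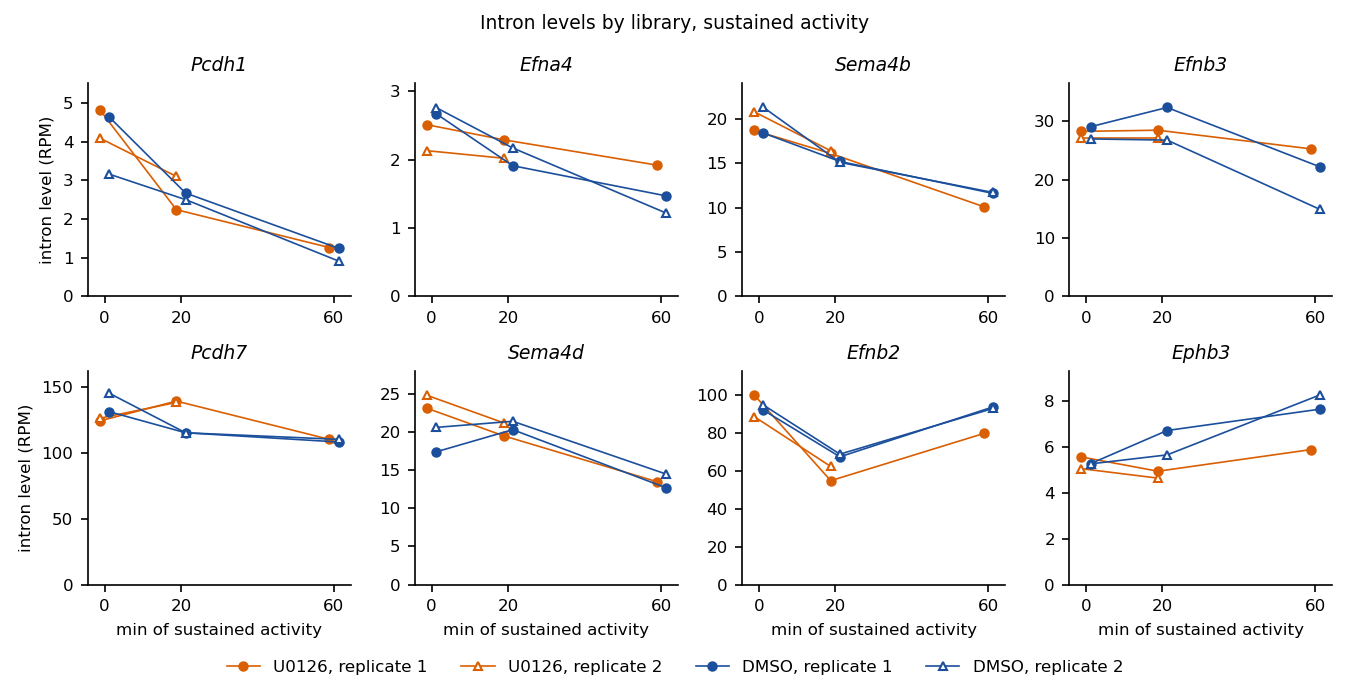
Intron levels (RPM, linear axis from 0) of 8 genes at 0, 20 and 60 min of sustained activity, with U0126 in orange and DMSO in blue. Filled circles are replicate 1 and open triangles replicate 2, points are drawn slightly apart, and U0126 at 60 min has replicate 1 only. Pcdh1, Sema4b and Sema4d end low with either drug, while Efnb2 is lower at 20 min than at 0 min in each replicate with either drug.

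At 20 min of sustained activity in DMSO, limma called 0 of the 111 (0.260% of all transcripts rose and 0.00930% fell), although 7 had an unadjusted p under 0.05. edgeR called 0. With the block, 7 fell and 0 rose, against 1.25% and 1.48% of all transcripts. TMM scaling with the block kept 4 of these, and Efnb2, Pcdh15 and Pcdh17 were also called by edgeR with the block. Shares of all transcripts in those fits are not given here. Efnb2, a transmembrane ephrin that also signals back into the cell that carries it, had 67.4 and 68.8 RPM in stimulated cultures against 92.0 and 94.7 RPM in unstimulated ones (blocked log2 -0.45 ± 0.10, adjusted p = 0.014, and 0.46 without the block). Pcdh17, a protocadherin outside the clusters, had 32.9 and 24.8 RPM against 46.6 and 33.1 RPM (blocked log2 -0.45 ± 0.11, adjusted p = 0.027). Its groups do not overlap, though by a narrow margin (32.9 against 33.1 RPM), and within each dissection the stimulated value is the lower one. The other calls were Cdh13, Epha6, Pcdh11x and Sema6d, with blocked log2 differences between -0.36 and -0.24. Pcdh7, which the naming rule also takes, stood at 115 and 115 RPM against 131 and 145 RPM (blocked adjusted p = 0.076).

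Efnb2 was lower at 20 min in U0126 as well. It had 54.8 and 62.3 RPM with sustained activity and 60.9 and 65.2 RPM with brief activity, against 100 and 88.6 RPM in unstimulated U0126 cultures. The blocked log2 differences were -0.69 ± 0.10 (adjusted p = 0.00038) and -0.58 ± 0.10 (adjusted p = 0.0026), and they share that control. Without the block these calls were lost (adjusted p = 0.23 and 0.38). In DMSO with 20 min of brief activity Efnb2 had 76.4 and 90.1 RPM (blocked log2 -0.17 ± 0.10, adjusted p = 0.40).

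Between 20 and 60 min of sustained activity in DMSO the dip of Efnb2 reversed. It had 93.7 and 92.9 RPM at 60 min (blocked log2 0.45 ± 0.10 over 20 min, adjusted p = 0.0030, and 0.12 without the block). Pcdh17 also came back, to 43.8 and 44.6 RPM (blocked log2 0.62 ± 0.11, adjusted p = 0.00054). In that comparison limma called 0 of the 111 (1.71% of all transcripts rose and 1.02% fell, 8 genes with an unadjusted p under 0.05), edgeR called 0, and the block gave 4 rises and 11 falls (7.16% and 11.3% of all transcripts). TMM scaling with the block gave 5 rises and 5 falls, and edgeR with the block 4 and 4. Of these 3 blocked fits, falls outnumbered rises on the deposited scale alone. That compares counts of these genes only, as shares of all transcripts are not given here for the other 2 fits. The falls called in each of these fits included Efnb3 (log2 -0.69 ± 0.11), Sema4d (-0.61 ± 0.11) and Pcdh1 (-1.11 ± 0.28), so Efnb3 and Sema4d, at 32.4 and 26.8 RPM and at 20.3 and 21.4 RPM at 20 min, were low at 60 min only. Sema4b was already at 15.2 and 15.1 RPM at 20 min (blocked adjusted p = 0.078 against unstimulated cultures).

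At 20 min of brief activity in DMSO the gamma protocadherins were higher than in unstimulated cultures. Limma called 0 of the 111 (0.112% of all transcripts rose and 0% fell) with 24 at an unadjusted p under 0.05, and edgeR called 0. With the block, 21 rose and 1 fell, against 1.89% and 0.772% of all transcripts. All 21 were gamma protocadherins. Their transcripts start at separate first exons and run into the same last exons, so they share intron reads and count as about 1 locus, not as 21 genes. Over the libraries the gamma transcripts had a median pairwise correlation of 0.98. Pcdhgc3, with the largest rise, had 83.6 and 80.5 RPM in stimulated cultures against 63.9 and 59.8 RPM in unstimulated ones (blocked log2 0.41 ± 0.07, adjusted p = 0.0011, and 0.051 without the block). Pcdhga1, with the highest level of the cluster, had 377 and 377 RPM against 297 and 324 RPM (blocked log2 0.28 ± 0.06, adjusted p = 0.015). Pcdhgc5 and Pcdhga2 rose by 0.34 ± 0.09 and 0.28 ± 0.06 on the same scale. The 14 alpha protocadherins, a neighbouring cluster, had log2 differences between 0.05 and 0.17, and 0 were called. Outside the clusters only Pcdh15 was called, downward.

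At 20 min of sustained activity the 22 gamma transcripts had blocked log2 differences between 0.03 and 0.17 in DMSO, at 60 min of brief activity between 0.06 and 0.18, and at 60 min of sustained activity between 0.06 and 0.21, with 0 called each time on the deposited scale. With U0126 at 20 min of brief activity they lay between 0.11 and 0.25 and 6 of the 22 were called, Pcdhgc3 among them at 86.4 and 80.0 RPM against 71.5 and 69.2 RPM. Unstimulated cultures with U0126 stood above those with DMSO for all 22, by 0.17 to 0.20, and 0 of these were called. The direct comparison of sustained with brief activity at 20 min in DMSO put all 36 clustered transcripts lower with sustained activity, by 0.15 to 0.30 on the log2 scale. Pcdhgc4, for example, had 25.8 and 28.3 RPM with sustained against 31.4 and 34.6 RPM with brief activity (adjusted p = 0.50 with the block). It called 0 of the 111 by limma (0% of all transcripts, 13 genes with an unadjusted p under 0.05), 0 with edgeR, and 0 with the block (0.0279% of all transcripts rose).

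**Figure D3:**
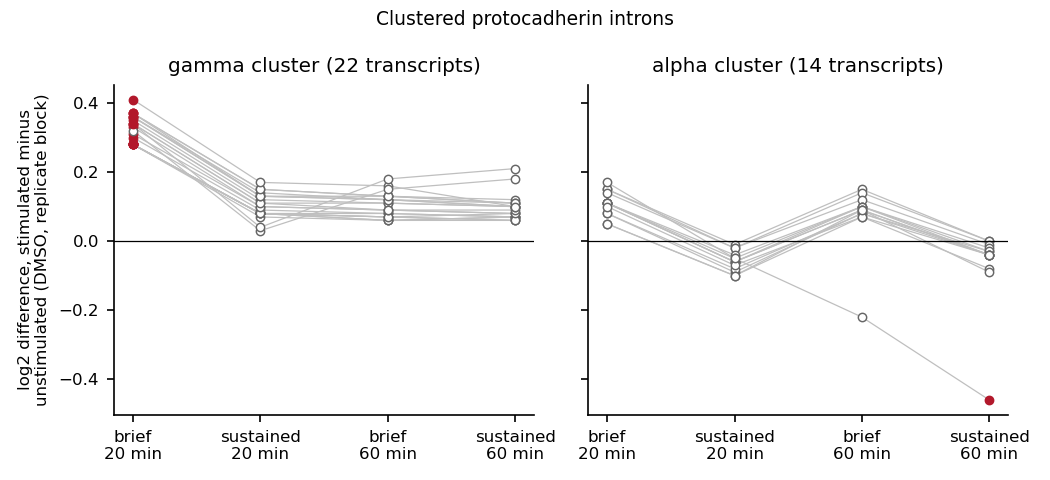
Blocked log2 differences, stimulated minus unstimulated in DMSO, for the gamma (left) and alpha (right) protocadherin transcripts under brief and sustained activity. Lines join 1 transcript, and filled red circles have an adjusted p under 0.05. The gamma transcripts lie between 0.28 and 0.41 at 20 min of brief activity, and the alpha transcript apart from the rest is Pcdhac2, which fell at 60 min of sustained activity.

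The introns counted for Pcdhac2, one of the C-type isoforms of the alpha cluster, departed from those of its neighbours. Pcdhac2 overlaps 16 genes on the same strand, other alpha protocadherins among them. Its intron reads therefore cannot be assigned to this isoform or its promoter. Pcdhac2 had 19.3 and 16.1 RPM at 60 min of sustained activity in DMSO against 26.6 and 22.3 RPM in unstimulated cultures (blocked log2 -0.46 ± 0.09, adjusted p = 0.00071, and 0.15 without the block). Pcdha1 of the same cluster had 325 and 270 RPM against 323 and 271 RPM. In U0126 Pcdhac2 stood at 23 RPM against 29.8 and 24.8 RPM (blocked log2 -0.36 ± 0.11, adjusted p = 0.028), and that call was lost with TMM scaling and the block (adjusted p = 0.11) and with edgeR and the block (0.10). In DMSO the call held in both.

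At 60 min of brief activity in DMSO, with replicate 1 alone, limma called 0 of the 111 (0% of all transcripts, 4 genes with an unadjusted p under 0.05), edgeR 0, and the block 0 (0.614% of all transcripts rose and 1.06% fell). The genes with the smallest p were Sema3a, Sema4b, Pcdhgc3 and the low-level Cdhr1 (0.277 RPM against 0.757 and 0.628 RPM, blocked adjusted p = 0.28). Sema3a, a secreted repellent, had 43.9 RPM against 33.3 and 34.6 RPM (blocked log2 0.40 ± 0.13, adjusted p = 0.098). Sustained against brief activity at 60 min in DMSO also called 0 by limma (1.50% of all transcripts rose and 0.395% fell, 13 genes with an unadjusted p under 0.05) and 0 by edgeR. With the block 13 fell and 1 rose (4.45% and 5.66% of all transcripts), and only Pcdh7, Pcdh9 and Plxna2 were called by edgeR with the block as well. Plxna2 had 132 and 121 RPM with sustained activity against 198 RPM with brief activity (blocked log2 -0.58 ± 0.10, adjusted p = 0.00058, and 0.064 without the block). Pcdh9 had 676 and 437 RPM against 925 RPM (blocked log2 -0.44 ± 0.09, adjusted p = 0.0040, and 0.67 without the block), a difference that shows within replicate 1. That comparison has 1 library of brief activity.

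Some plexins rose at 20 min in U0126, in the fit with the block. By limma 0 of the 111 were called at 20 min of sustained activity (0.0418% of all transcripts rose and 0.00930% fell, 4 genes with an unadjusted p under 0.05) and 0 at 20 min of brief activity (0.0279% rose and 0% fell, 7 genes), and edgeR called 0 in each. With the block, sustained activity gave 3 rises and 1 fall (1.45% and 2.54% of all transcripts) and brief activity 11 rises and 2 falls (1.78% and 2.34%). Of the 9 plexins, 2 rose with sustained and 4 with brief activity. Plxnc1, a receptor of Sema7a, had 136 and 119 RPM with sustained and 141 and 127 RPM with brief activity, against 105 and 105 RPM in unstimulated U0126 cultures. Its blocked log2 differences were 0.27 ± 0.07 and 0.34 ± 0.07 (adjusted p = 0.025 and 0.0083). In DMSO its blocked log2 differences were 0.13 ± 0.07 and 0.18 ± 0.07, and neither was called (adjusted p = 0.33 and 0.18). The blocked interactions of drug and response for Plxnc1 were 0.14 ± 0.09 and 0.17 ± 0.09 (adjusted p = 0.97 and 0.82). A difference between the drugs was therefore not called. Sema4d, the plexin-B1 ligand, was lower at 20 min of brief activity in U0126, with 16.3 and 18.9 RPM against 23.1 and 24.8 RPM (blocked log2 -0.44 ± 0.11, adjusted p = 0.032). Unstimulated DMSO cultures had 17.4 and 20.6 RPM, below the unstimulated U0126 cultures used as its control (blocked log2 of U0126 over DMSO 0.34 ± 0.11, adjusted p = 0.33). The blocked interaction for Sema4d was -0.49 ± 0.16 (adjusted p = 0.34), so a difference between the drugs was not called there either. At 60 min of brief activity in U0126, 0 of the 111 were called by limma (0% rose and 0.00465% fell, 2 genes with an unadjusted p under 0.05) and 0 by edgeR. The block called 1, Cdh8 (0.428% of all transcripts rose and 0.497% fell). The genes with the smallest p there included Sema3a, with 37.6 and 38.6 RPM against 29.1 and 30.7 RPM (blocked log2 0.35 ± 0.10, adjusted p = 0.096), and Efna2, an ephrin-A ligand, with 3.66 and 3.23 RPM against 4.86 and 4.38 RPM (-0.40 ± 0.18, adjusted p = 0.31). Pcdh18 lay at 0.619 and 1.17 RPM against 1.35 and 1.63 RPM (-0.64 ± 0.30, adjusted p = 0.30).

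In unstimulated cultures 2 genes were lower with U0126 than with DMSO once dissections were paired. U0126 against DMSO called 0 of the 111 by limma (0% of all transcripts, 4 genes with an unadjusted p under 0.05) and 0 by edgeR, and with the block 2 fell (0.284% of all transcripts fell and 0.135% rose). Cdh8, a type II classical cadherin found at synapses, had 94.2 and 57.1 RPM with U0126 against 124 and 81.3 RPM with DMSO. Its replicates overlap between the groups because the dissections differ, and within each dissection U0126 was lower (blocked log2 -0.45 ± 0.07, adjusted p = 0.0020, against 1 without the block). Pcdh15, a protocadherin known from the tip links of sensory hair cells, had 61.9 and 42.6 RPM against 83.1 and 57.9 RPM (blocked log2 -0.43 ± 0.08, adjusted p = 0.0073, and 1 without the block). Both calls held with TMM scaling and with edgeR, each with the block, but not under 1 reading of the identical column, given with the interactions of Cdh8.

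Cdh8 was higher with activity in 3 of the 4 stimulated U0126 groups. It had 134 and 75.5 RPM at 20 min of sustained, 130 and 77.0 RPM at 20 min of brief and 128 and 73.1 RPM at 60 min of brief activity, against the 94.2 and 57.1 RPM of unstimulated U0126 cultures. These 3 comparisons were called with the block. At 60 min of sustained activity it had 102 RPM in U0126 (replicate 1, blocked log2 0.10 ± 0.09, adjusted p = 0.47), and the interaction there was 0.29 ± 0.11 (adjusted p = 0.62). In DMSO, at 20 min of sustained and 20 and 60 min of brief activity, it had 125 and 69.3 RPM, 128 and 78.2 RPM and, in replicate 1, 143 RPM, against 124 and 81.3 RPM. The interaction of drug and response was 0.56 ± 0.10 for 20 min of sustained activity (blocked, adjusted p = 0.0078) and 0.45 ± 0.10 for 20 min of brief activity (adjusted p = 0.047). Among all transcripts 0.0930% had a positive and 0.223% a negative interaction in the first and 0.0930% and 0.256% in the second. Without the block neither interaction was called (0 of the 111 each, 1 gene with an unadjusted p under 0.05 each, and 0 with edgeR). The second was lost with TMM scaling and the block (adjusted p = 0.053). All of these comparisons of Cdh8 share the unstimulated U0126 cultures, in which it is low. With the identical column kept as replicate 2 of 60 min of brief activity in DMSO, with the block, the fall of Cdh8 in unstimulated cultures and both interactions lost their call (adjusted p = 0.088, 0.41 and 0.71), and so did the fall of Pcdh15 in unstimulated cultures (adjusted p = 0.061). For 60 min of brief activity the interaction called 0 of the 111 by limma, with and without the block (0% of all transcripts, 5 and 2 genes with an unadjusted p under 0.05), and 0 by edgeR.

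**Figure D4:**
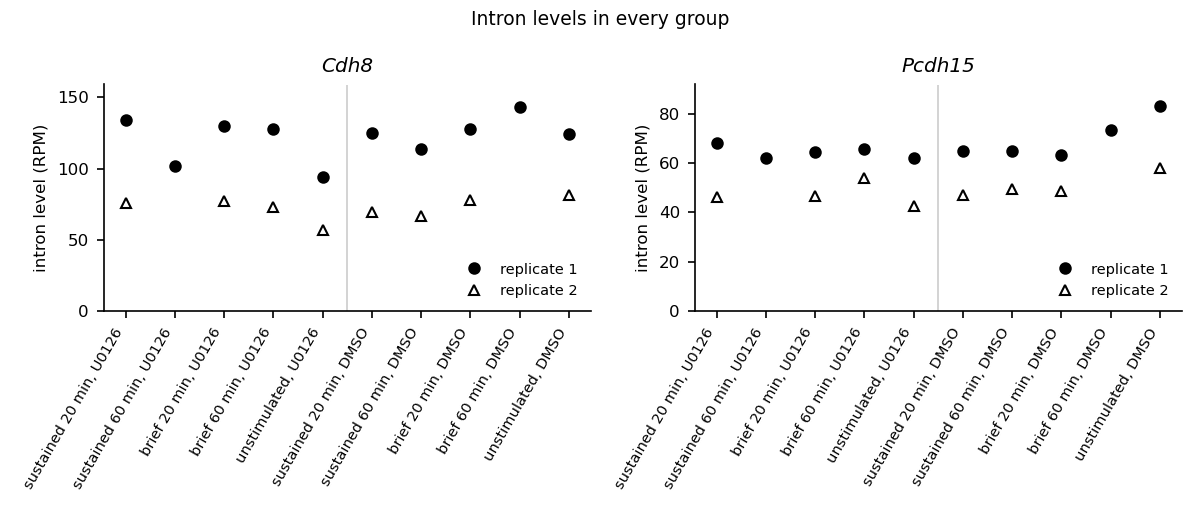
Intron levels (RPM, linear axis from 0) of Cdh8 and Pcdh15 in each group, U0126 groups left of DMSO groups, with replicate 1 as filled circles and replicate 2 as open triangles. Groups without a triangle have replicate 1 only. Within each replicate Cdh8 is lowest in unstimulated U0126 cultures, and Pcdh15 is highest in unstimulated DMSO cultures.

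Pcdh15 showed another order. In DMSO it was lower with activity, at 64.9 and 47.1 RPM at 20 min of sustained, 64.8 and 49.7 RPM at 60 min of sustained and 63.5 and 48.8 RPM at 20 min of brief activity, against 83.1 and 57.9 RPM. The blocked log2 differences were -0.33, -0.29 and -0.32, each with an SE of 0.08 and each called, and they share the unstimulated DMSO cultures. The call at 60 min of sustained activity was lost with TMM scaling and the block (adjusted p = 0.052) and with edgeR and the block (0.072). At 60 min of brief activity Pcdh15 had 73.6 RPM in replicate 1 (blocked log2 -0.14 ± 0.10, adjusted p = 0.49). In U0126 the stimulated cultures stood between 61.9 and 68.2 RPM in replicate 1 and between 46.2 and 53.9 RPM in replicate 2, against 61.9 and 42.6 RPM, and 0 of these comparisons was called for Pcdh15. By limma with the block, its interaction of drug and response was 0.45 ± 0.11 at 20 min of sustained activity (adjusted p = 0.093). At 20 min of brief activity it was 0.41 ± 0.11 (adjusted p = 0.16). TMM scaling with the block called the interaction with sustained activity, and edgeR with the block called neither.

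The dissections differed in the level of some of these genes. In the 8 groups that have both, the difference of replicate 2 minus replicate 1 exceeded 1 on the log2 scale in 6 of the 111 genes (5.41%) and in 10.3% of all transcripts. Cdh26 averaged 2.22 RPM in replicate 2 and 0.0562 RPM in replicate 1, and was higher in replicate 2 in 8 of 8 groups. Plxnb2, a receptor of class 4 semaphorins, averaged 155 RPM in replicate 2 and 67.6 RPM in replicate 1, and Sema3c, a secreted semaphorin, averaged 63.3 RPM in replicate 2 and 28.9 RPM in replicate 1. Epha2, Cdh23 and Ephb4 were the others, all higher in replicate 2. In the other direction Epha10 averaged 4.61 RPM in replicate 2 and 9.13 RPM in replicate 1, Sema7a 46.2 RPM in replicate 2 and 81.9 RPM in replicate 1, and Cdh8 72.3 RPM in replicate 2 and 122 RPM in replicate 1. Summed astrocyte markers were higher in replicate 2 (431 to 504 RPM, against 300 to 358 RPM in replicate 1), although Slc1a2 was lower. Summed neuronal markers were lower in replicate 2 (2948 to 3301 RPM against 3632 to 4192 RPM). Map2 made most of that sum, with means of 2170 RPM in replicate 2 and 2790 RPM in replicate 1. Rbfox3 was nearly level (51.8 and 52.2 RPM), and Gad1, Gad2 and Slc17a6 were higher in replicate 2. Summed markers of the oligodendrocyte lineage were lower in replicate 2 (74.8 to 95.2 RPM against 134 to 163 RPM), although Cnp was higher. The part of these cell types in the gaps was not tested.

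**Figure D5:**
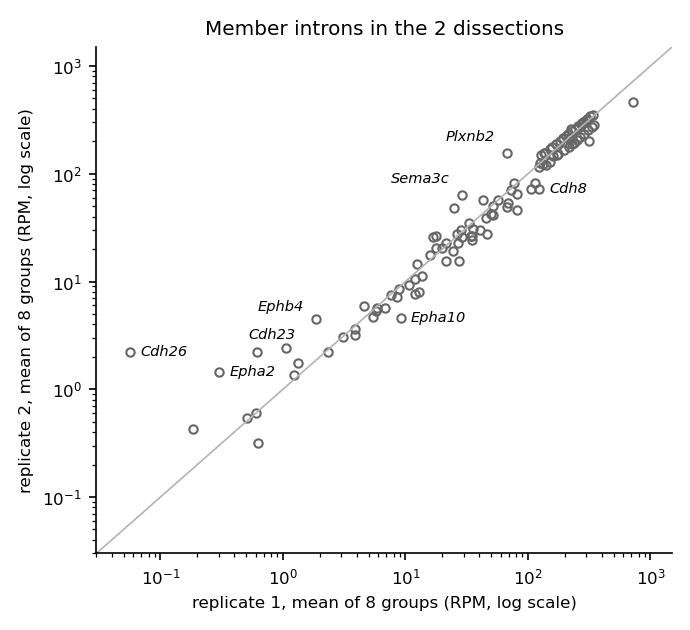
Mean intron level of each of the 111 genes in replicate 2 (vertical) against replicate 1 (horizontal), each over the 8 groups that have both, on log axes in RPM. The line marks equal levels. Cdh26, Epha2, Cdh23, Ephb4, Plxnb2 and Sema3c lie farthest above it.

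Many of these genes are long, but not in every family. The median intron length of the 111 was 117 kb, against 24.7 kb over the 21189 transcripts with a length. By family, with untested genes included, the median was 145 kb for clustered protocadherins, 89.9 kb for other protocadherins, 84.7 kb for Eph receptors and 80.4 kb for cadherins. It was 33.3 kb for plexins, 25.6 kb for semaphorins and 8.09 kb for ephrins. In DMSO the 59 of the 111 with at least 100 kb of intron had a median log2 difference of -0.07 at 20 min of sustained activity, and the 52 shorter ones 0.10. Over all transcripts the medians were -0.07 and -0.01. Of the 7 falls with the block, 5 were in the longer set, which holds 59 of the 111 genes. Among all transcripts, 70 of the 3346 with at least 100 kb fell in that fit, and 195 of the 17843 shorter ones. At 60 min of sustained activity the medians of the longer and shorter sets were -0.04 and -0.03, and at 20 min of brief activity 0.02 and 0.15. The 36 clustered transcripts share introns and weigh on these medians.

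Other genes of the same pathways were read from 3 lists, chosen with earlier results of these data known. Of 36 other guidance cues and receptors tested, 0 rose and 3 fell at 60 min of sustained activity in DMSO (1 and 11 with the block). Over all transcripts 3.36% rose and 4.70% fell, or 9.03% and 19% with the block, and with TMM scaling and the block 13.1% rose and 11.3% fell. Those that fell were Rgma (log2 -1.53 ± 0.25, adjusted p = 0.0055) and Rgmb (-0.77 ± 0.19, adjusted p = 0.031), repulsive guidance molecules that act through neogenin, and Dscaml1 (-0.45 ± 0.08, adjusted p = 0.012), an adhesion protein of the immunoglobulin family. Of 31 guidance signalling genes 0 were called (0 rose and 6 fell with the block). Of 18 cadherin partners and large cadherins 1 rose, Ctnnd1, which encodes the cadherin-binding p120 catenin (0.38 ± 0.08, adjusted p = 0.019), and with the block 1 rose and 2 fell. The medians of the 3 lists were -0.16, -0.05 and 0.02, against -0.09 over all transcripts.

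None of the 351 captured enhancer regions had one of the 122 genes as its nearest gene, so 0 could be set beside an intron response. Of those regions 332 had a gene of the capture panel as nearest.

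Some introns are not read by 1 gene alone. The libraries were stranded, per the labels, but no source used here says whether counting used strand. Of the 75 tested genes outside the clusters, 14 overlap another GENCODE gene on the same strand and 32 one on the other strand (GRCm38). Pcdh1 and Efna4 each overlap 1 gene on the other strand, Sema4b 1 on the same strand, and Pcdh7 13 on the same strand and 1 on the other. Reads shared with a partner on the same strand cannot be told apart in any case, and those shared with one on the other strand cannot be if counting ignored strand.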

How the data were processed

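Total RNA intron levels were deposited by the authors in RPM, as worked out from the values: columns sum to between 963705 and 966590, and 100% of values were whole multiples of 1 read (tolerance 0.05). The submitters' processing notes list STAR, SAMtools and bedtools, with no versions or roles, and mm9 as the build. The authors' captured gene and enhancer tables, deposited as a normalised signal, served only for the names of panel and nearest genes. Of 24 columns, 2 identical ones were left out, cultures of 1 dissection were averaged, and 18 replicate columns in 10 groups were fitted. The number of other columns that could be tied to no sample, and so stayed unused, was 1.

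Tests ran in limma 3.58.1 (R 4.3.3) on log2(RPM + 0.248), the 10th percentile of non-zero values, over transcripts with at least that mean, with all groups in 1 fit, a variance trend and an adjusted p threshold of 0.05. Fold changes on this scale understate those of low genes. edgeR 4.0.16 on the recovered reads called 838 transcripts higher and 512 lower at 60 min of sustained activity in DMSO. The replicate numbers, which the labels tie to dissections, pair the samples: deviations correlated between 0.842 and 0.905 in 28 pairs of groups. Scripts were tested on simulated data. Python 3.11.15, pandas 2.3.3 and matplotlib 3.10.9 did the rest.

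Per comparison a naming rule took the 10 largest rises and falls past the threshold whose replicates lie on 1 side. With fewer than 4 calls it also took the 4 smallest p. The 2 highest levels per family were named as well. For the interactions and other comparisons without calls, not every gene so taken is named in the text. Other genes were named after their values were seen. The genes and lists were chosen with earlier results of these data known.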

Additional observations from a re-analysis of the deposited data

Results flagged for a closer look

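Cdh8 responded differently to activity with U0126 and with DMSO, by the test of the interaction with the replicate number as a block. At 20 min of sustained activity the interaction was 0.56 ± 0.10 on the log2 scale (limma, adjusted p = 0.0078). Stimulated minus unstimulated, the response was positive in both replicates with U0126 (134 and 75.5 RPM against 94.2 and 57.1 RPM) and near or below zero with DMSO (125 and 69.3 RPM against 124 and 81.3 RPM). At 20 min of brief activity the interaction was 0.45 ± 0.10 (adjusted p = 0.047), from 130 and 77.0 RPM with U0126 and 128 and 78.2 RPM with DMSO against the same unstimulated cultures. The unstimulated U0126 cultures enter both, and stimulated levels with either drug are close to each other. When the identical column was kept as replicate 2 of 60 min of brief activity in DMSO, with the block, neither passed (adjusted p = 0.41 and 0.71). The groups have 2 samples at most, so single samples were not screened for standing apart.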

How the results depend on the processing

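The counts of genes called, of 111, were 5 for 60 min of sustained activity in DMSO, 1 for the same in U0126 and 0 in the other 14 comparisons. With the replicate block they became 23 and 15, 22 for brief 20 min, 15 for sustained 60 against 20 min, 14 for sustained against brief at 60 min, 7 for sustained 20 min (all DMSO), 13 for brief 20 min, 4 for sustained 20 min and 1 for brief 60 min in U0126, 2 for U0126 against DMSO, and 1 for each 20 min interaction. The block changed no other count. In the same order of comparisons, TMM scaling with the block gave 22, 9, 23, 10, 9, 4, 17, 4, 1 and 2, with 2 for the sustained 20 min interaction, and edgeR with the block 22, 8, 23, 8, 3, 3, 17, 4, 2 and 2, with 1 for that interaction. With the identical column kept as DMSO brief 60 min replicate 2 and the block, the counts were 15, 7, 20 and 8 for the first 4, 3 for brief and 3 for sustained 20 min in U0126, and 1 for brief 60 min in DMSO. With it kept as U0126 sustained 60 min replicate 2 and the block, they were 24, 23, 23, 15, 12, 6, 14, 4, 1 and 2, and 1 for each 20 min interaction. These settings that join another choice to the block were chosen after seeing the data.

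Without the block fewer counts moved. Sustained 60 min in DMSO gave 3 with edgeR and 3 with the identical column kept as DMSO brief 60 min replicate 2. In U0126 it gave 2 from the first culture only, 0 with the identical column kept as DMSO and 2 with it kept as U0126. Brief 20 min in DMSO gave 1 (Pcdhgc3) with a pseudocount of 1 RPM, a mean of at least 1 RPM, no filter, 1 transcript per symbol, or the identical column kept as U0126. Sustained 60 against 20 min gave 1 with TMM scaling. Leaving out 1 replicate gave between 0 and 5 calls for sustained 60 min in DMSO, 0 to 3 in U0126, 0 to 2 for sustained 60 against 20 min, 0 to 1 for sustained against brief at 60 min and 0 elsewhere, where the group with 1 sample is assumed to vary like the others.

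Of 2188 values of 65 named results under these settings, 2016 kept their side of the threshold, 121 passed it anew, 51 lost it and 0 changed direction with a call. With 2 libraries a group and a median of 18454336 reads over introns, depth limits the low genes (Epha2, Efna4, Pcdh1), and the number of replicates limits all of them.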
